A study of Mus musculus with 6 samples.

Results

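Semaphorins, their plexin and neuropilin receptors, and the collapsin response mediator proteins (CRMPs) that act inside the axon were measured in the adult mouse modiolus 4 weeks after exposure to loud noise. The 34 genes of this signalling system that were listed by name, 19 semaphorins, 9 plexins, 2 neuropilins and 4 CRMPs, all had probe sets on the Affymetrix mouse genome array. They are 34 of 18193 genes on the array and have 85 of its 45101 probe sets, counting only probe sets annotated to exactly 1 gene. Each gene is described by its brightest probe set, the one with the highest mean over all 6 arrays, and its other probe sets serve as a check. The modiolus, around whose bone the cochlea winds, contains the neurons of the spiral ganglion, which connect the hair cells with the brain, as well as glia and vessels. Both groups were CBA/CaJ mice killed at about 8 weeks of age, with 1 array per mouse and the left and right modioli of a mouse pooled. The noise-exposed group was 3 females of 1 litter, aged 57 days, which had heard noise between 5 and 20 kHz at 110 dB SPL for 5 h at 4 weeks of age. The unexposed group was 2 males and 1 female of 3 other litters, aged 53 to 59 days, which had stayed in the holding room. All 3 noise-exposed mice and unexposed replicate 1 were dissected on the first of 2 days, and unexposed replicates 2 and 3 on the second.

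Semaphorins are secreted or membrane-bound guidance proteins that share a sema domain and mostly repel growing axons. They bind plexins, whose intracellular part acts on small GTPases, and secreted class 3 semaphorins usually need a neuropilin as the ligand-binding partner of an A-type plexin. CRMPs bind tubulin and pass the signal on to the cytoskeleton. In the developing inner ear this system takes part in guiding spiral ganglion axons, and in adults semaphorins also act on vessels, bone and immune cells.

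The study first asked which guidance receptors are present in the adult cochlea. Signals are log2 values after robust multi-array averaging (RMA), and the authors took a signal above 4.25 as expression. Of the 34 genes, 30 lay above this cutoff on all 6 arrays, and the same 30 were the genes tested. The 4 others were the membrane semaphorins Sema5b and Sema6c and the receptors Plxna3 and Plxnb3. Sema5b, a class 5 semaphorin, lay below the cutoff on every array, with signals of 2.92, 2.87 and 3.36 in the noise-exposed mice and 3.41, 2.88 and 2.98 in the unexposed mice. Sema6c, Plxna3 and Plxnb3 lay above it on 1 array each, with highest signals of 4.35, 4.30 and 4.30. No other probe set of these 4 genes passed on all arrays. A signal under the cutoff gives only an upper bound for a transcript, and signals of different probe sets depend on their probes, so they do not rank the genes.

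Dpysl2, Dpysl3 and both neuropilins gave signals far above the cutoff in every mouse. Dpysl2 (CRMP2), which binds tubulin dimers in axons, had a signal of 12.94 ± 0.07 over the 6 mice (SD, n = 6). Nrp1, the neuropilin that binds Sema3a, had 10.06 ± 0.10, and Nrp2, the neuropilin that binds Sema3f, 8.93 ± 0.11. Near the cutoff were Sema3f at 4.91 ± 0.25, Sema4a at 4.93 ± 0.37 and Plxnd1 at 5.01 ± 0.16. The probe sets that stand for Sema3f, Sema4a and Sema4f carry the array maker's mark for probes that can also bind other transcripts, so their signals are uncertain. With the cutoff set 1 log2 unit higher, 24 of the 34 genes still passed on all 6 arrays.

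**Figure D1:**
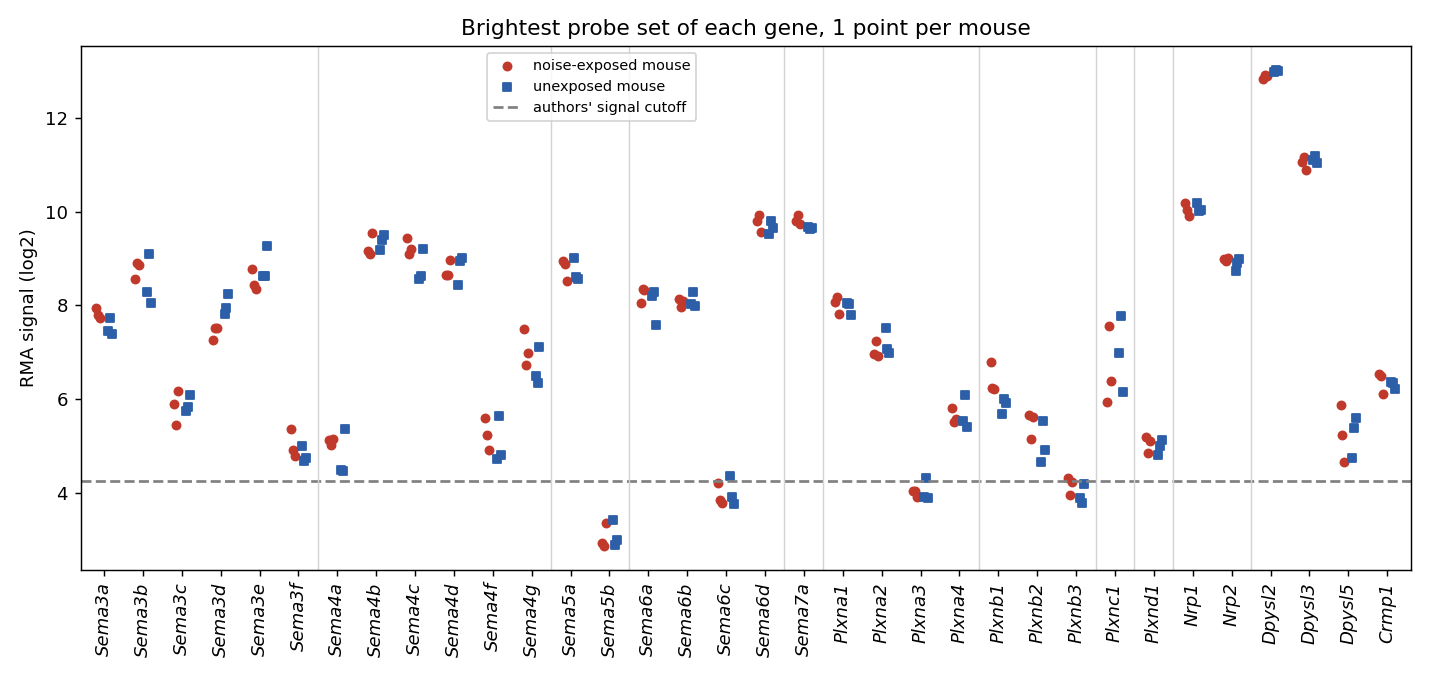
Signal (RMA, log2) of the brightest probe set of each of the 34 genes in each mouse, with noise-exposed mice as red circles, unexposed mice as blue squares, families separated by grey lines and the cutoff of 4.25 as a dashed line. Sema5b, Sema6c, Plxna3 and Plxnb3 lie at or under the line, and the mice of a group lie close together for most genes but not for Plxnc1.

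The authors' deposited table of 17 arrays, normalized together, adds 11 cochlea arrays of untreated C57BL/6 mice from other series to these 6. It lists 40 probe sets of 15 of the 34 genes, all of them receptors or membrane semaphorins. In it 21 of the 40 probe sets, of 13 genes, had a corrected p under 0.05 for a mean above 5.1. The 2 genes without such a probe set were Plxna3 and Plxnb3, which also missed the cutoff here. In that authors' deposited table Plxnb2, the receptor of Sema4c, had a mean of 7.54 (corrected p of 0.00406), Plxnd1, the receptor of Sema3e, 6.70 (0.000652), Nrp1 7.84 (0.000461) and Nrp2 7.09 (1.97e-05). On the 6 modiolus arrays the same probe sets averaged 5.25, 5.01, 10.06 and 8.93. On these probe sets Plxnb2 and Plxnd1 thus had the higher value in the table of 17 arrays, and both neuropilins in the modiolus arrays. Other probe sets of the neuropilins did not all go that way. Those of Nrp1 averaged 8.53, 7.32 and 6.82 over the 17 arrays and 9.84, 6.90 and 6.63 on the modiolus arrays. The others of Nrp2 listed there averaged 7.97 and 5.69 over the 17 arrays and 7.97 and 6.20 on the modiolus arrays. The tables were normalized separately and differ in strain, tissue and age, so these values stand side by side without a test. For Sema5a and Sema6a the brightest probe sets here did not pass in the authors' deposited table (corrected p of 0.103 and 0.17), while another probe set of each gene did, of which that of Sema6a averaged 4.08 on the modiolus arrays, under their cutoff.

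**Figure D2:**
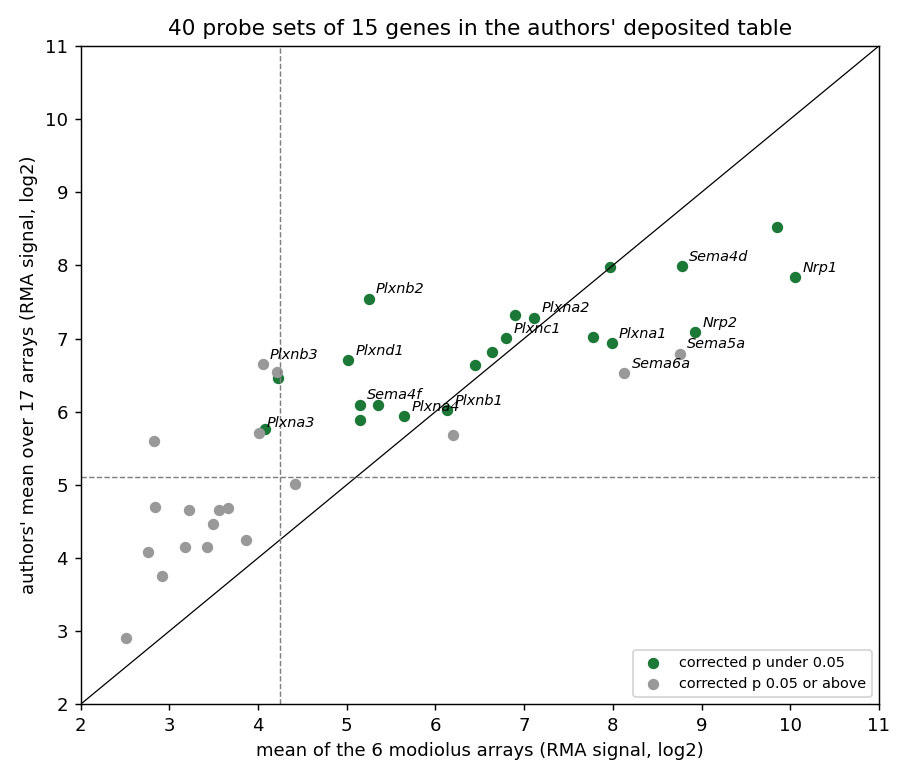
Mean signal (log2) of 40 probe sets of 15 genes over the 6 modiolus arrays (horizontal axis) and over 17 arrays in the authors' deposited table (vertical axis), which include these 6. Green points have a corrected p under 0.05 in that table, dashed lines mark the cutoffs of 4.25 and 5.1, the solid line marks equal values, and names stand beside each gene's brightest probe set.

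The second question was whether any of these genes differed between noise-exposed and unexposed modioli. None of the 30 measured genes passed the test (limma, Benjamini-Hochberg adjusted over 25200 probe sets, lowest adjusted p = 0.667), and over the whole array 0% of the tested probe sets passed, with 1781 at an unadjusted p under 0.05. At an unadjusted p under 0.05 there were 2 of the 30, Sema3d and Plxnb1, beside 6.19% of all genes with 1 brightest probe set each. Of the 30 genes 18 had a log2 fold change (noise-exposed minus unexposed) above 0, with a median of 0.07. Over all 11858 genes 63.3% lay above 0, and the median was also 0.07. Without noise-exposed replicate 3 the median of the 30 was 0.18. The 95% interval of the log2 fold change lay within -1 and 1 for 26 of the 30 genes, and within -0.5 and 0.5 for 10. These intervals give the differences that 3 mice a group leave possible, and they are not adjusted for the number of probe sets. In bulk tissue, fewer cells of a type and less RNA per cell cannot be told apart.

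The groups did not overlap for 5 of the 30 genes. All 3 noise-exposed mice lay above all 3 unexposed mice for Sema3a, Sema7a and Plxnb1, which is 3 of 30 beside 10.4% of all genes. All 3 lay below for Sema3d and Dpysl2, which is 2 of 30 beside 3.41% of all genes. These shares are near the background and are no result about the family. An exact permutation test of 3 against 3 mice cannot give a p below 0.1.

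**Figure D3:**
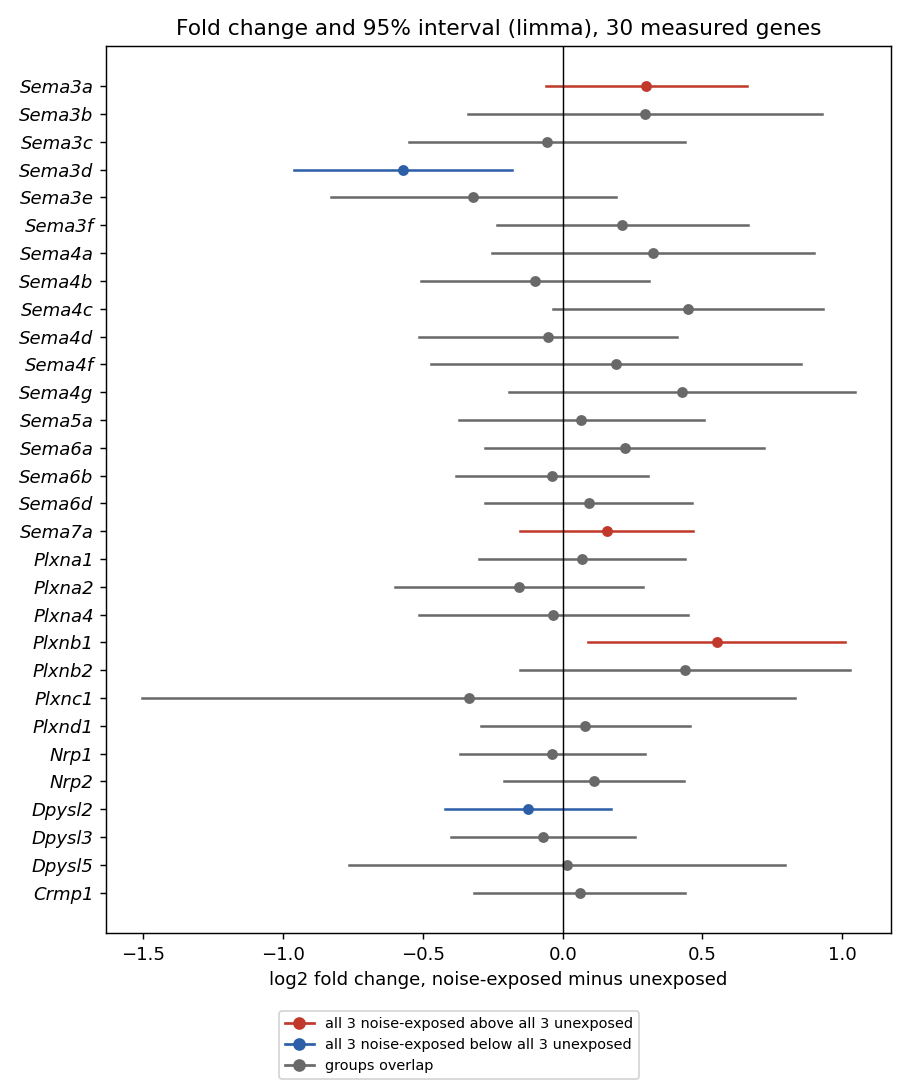
Log2 fold change (noise-exposed minus unexposed) with its 95% interval from limma for the 30 measured genes. Red and blue mark the 5 genes whose groups did not overlap, grey those whose groups did, and only the intervals of Sema3d and Plxnb1 leave out 0.

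The authors ranked receptors and asked for a fold change of at least 1.45. Plxnb1 is the only 1 of these genes among the 9 receptors of the authors' deposited list. There it has a fold change of 1.46 and a q-value of 0%. The same probe set did not pass the limma test here (adjusted p = 0.692). Among receptor probe sets, 9 had groups without overlap and a fold change past 1.45 upwards, and 12 had both downwards. A place in that list thus does not by itself set Plxnb1 apart. The authors' deposited receptor table holds 40 probe sets of 15 of the 34 genes and none of a class 3 semaphorin or a CRMP. When the same limits, groups without overlap and a fold change past 1.45 in either direction, were applied to all 47 probe sets of the 30 genes that lay above the cutoff on all 6 arrays, 3 met them. These were the brightest probe set of Plxnb1 (higher), that of Sema3d (lower) and a dimmer one of Sema3e (lower). That is 1 higher and 2 lower of 47, beside 1.3% higher and 0.854% lower of the 18730 probe sets of 1 gene above the cutoff on all 6 arrays. Counts this small show nothing particular to these genes. The promoters of these 3 genes are shown only because these genes met those limits. Each sequence runs from 250 bases before to 50 bases after the transcription start in RefSeq (GRCm38.p6, plus strand), and capitals mark the GC box GGGCGG or its reverse complement CCGCCC.
Plxnb1, chr9:109095186-109095485: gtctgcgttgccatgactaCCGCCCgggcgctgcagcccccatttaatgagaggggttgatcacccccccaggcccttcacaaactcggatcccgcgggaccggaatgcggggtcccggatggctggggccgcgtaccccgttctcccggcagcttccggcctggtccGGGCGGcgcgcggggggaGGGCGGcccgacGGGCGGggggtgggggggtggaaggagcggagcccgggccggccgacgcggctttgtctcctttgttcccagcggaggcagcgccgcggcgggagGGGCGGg
Sema3d, chr5:12382916-12383215: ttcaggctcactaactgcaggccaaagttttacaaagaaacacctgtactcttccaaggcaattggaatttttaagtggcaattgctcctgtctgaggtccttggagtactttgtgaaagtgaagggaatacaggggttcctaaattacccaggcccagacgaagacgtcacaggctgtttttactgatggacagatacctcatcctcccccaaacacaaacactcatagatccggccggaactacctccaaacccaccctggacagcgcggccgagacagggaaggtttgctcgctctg
Sema3e, chr5:14025026-14025325: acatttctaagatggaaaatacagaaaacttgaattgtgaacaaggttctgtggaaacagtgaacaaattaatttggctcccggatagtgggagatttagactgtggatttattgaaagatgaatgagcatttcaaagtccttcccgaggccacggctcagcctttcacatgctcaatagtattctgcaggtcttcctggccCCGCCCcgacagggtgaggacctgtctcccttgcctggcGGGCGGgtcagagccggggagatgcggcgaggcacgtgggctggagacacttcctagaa
The Plxnb1 window held 5 GC boxes and a G and C content of 74.7%, the Sema3e window 2 and 50.7%, and the Sema3d window 0 and 49.7%. Of 32851 promoter windows of this length 35.7% held a GC box, and the median G and C content was 52.7%. The TATA box TATAAA, searched on both strands like the GC box, was in none of the 3 windows and in 13.6% of all windows.

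Among the secreted class 3 semaphorins, Sema3d and Sema3e had the lower and Sema3a the higher mean in noise-exposed mice, and none of the 3 passed the test. Sema3d, a secreted semaphorin that acts on axons and endothelial cells, had signals of 7.26, 7.51 and 7.52 in the noise-exposed mice and 7.82, 7.94 and 8.25 in the unexposed mice. Every noise-exposed mouse lay below every unexposed mouse. The means were 7.43 ± 0.15 against 8.00 ± 0.22 (SD, n = 3). The log2 fold change was -0.57 (SE 0.17, 95% interval -0.96 to -0.18) and did not pass (limma adjusted p = 0.667). The difference was -0.39 from unexposed replicate 1, which was dissected on the same day, and -0.51 from replicate 2, the unexposed female. The other probe set of Sema3d lay under the cutoff on all arrays.

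Sema3e, which signals through Plxnd1 without a neuropilin, was covered by 4 tested probe sets, and all 4 had a log2 fold change below 0. The brightest had signals of 8.77, 8.44 and 8.34 in the noise-exposed mice and 8.63, 8.63 and 9.26 in the unexposed mice, so unexposed replicate 3 stood above the rest and the groups overlapped. Its log2 fold change was -0.32 (SE 0.22, limma adjusted p = 0.754). The probe set without overlap between the groups had signals of 6.36, 7.18 and 7.07 in the noise-exposed mice and 7.49, 7.90 and 7.43 in the unexposed mice. Its log2 fold change was -0.74 (SE 0.25, adjusted p = 0.67). The other 2 gave -0.50 (SE 0.26) and -0.43 (SE 0.22), with overlapping groups. The 4 probe sets read the same 6 RNA samples and are not replicates. Of 543 genes with 4 tested probe sets, 30.8% had all 4 on the same side of 0. Against unexposed replicate 1 alone and replicate 2 alone, the brightest probe set differed by -0.11 and -0.11.

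Sema3a, the best known axon repellent of the family and the ligand of Nrp1, had signals of 7.94, 7.79 and 7.74 in the noise-exposed mice and 7.44, 7.74 and 7.38 in the unexposed mice. Its groups did not overlap, and the lowest noise-exposed mouse lay next to unexposed replicate 2. The log2 fold change was 0.30 (SE 0.16, limma adjusted p = 0.711), and 0.08 against unexposed replicate 2 alone. Another probe set of Sema3a was not tested, since only 2 unexposed mice lay above the cutoff there. It had the opposite sign, with a log2 difference of -0.50 and overlapping groups. A further probe set lay under the cutoff on all arrays. By RefSeq gene order Sema3a follows Sema3d on mouse chromosome 5 with 0 protein-coding genes between them, and Sema3e follows Sema3a after 3. On their brightest probe sets Sema3d and Sema3e lay below 0, and Sema3a, which lies between them, above 0. Sema3b, which binds neuropilins, had signals of 8.57, 8.90 and 8.86 in the noise-exposed mice and 8.28, 9.10 and 8.06 in the unexposed mice, with unexposed replicate 2 as the highest of all. All 3 of its probe sets had a log2 fold change above 0, 0.29 on the brightest, but against the unexposed female alone the value was -0.33. Sema3c, known from heart outflow development, and Sema3f, the ligand of Nrp2, had log2 fold changes of -0.06 (SE 0.21) and 0.21 (SE 0.19), with overlapping groups.

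**Figure D4:**
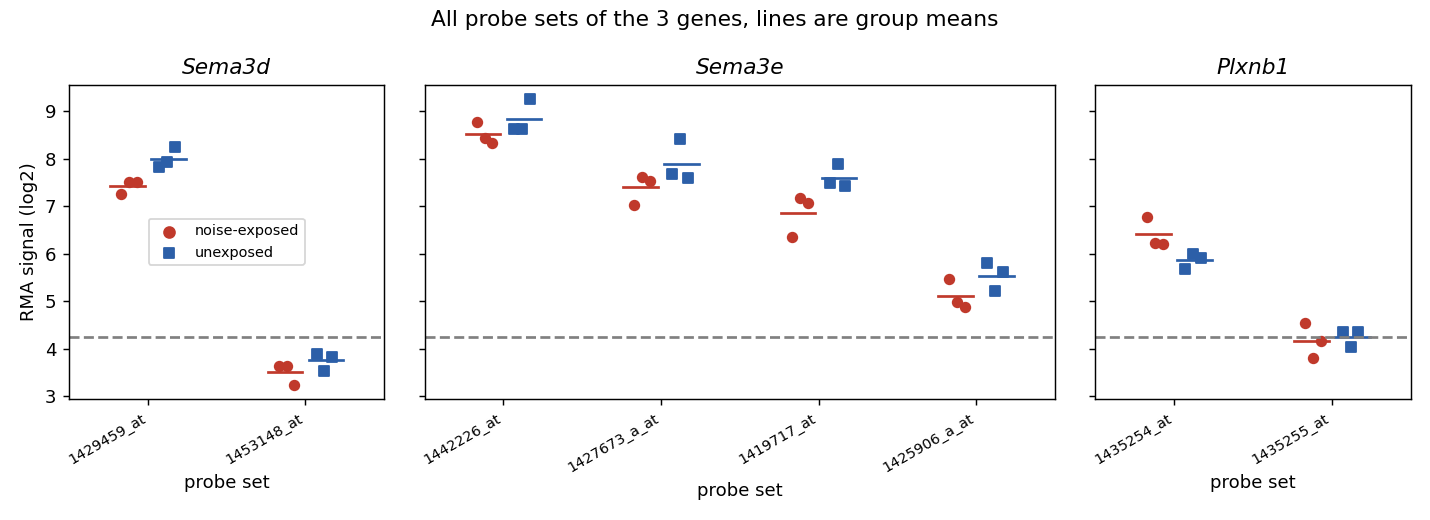
Signal (RMA, log2) of every probe set of Sema3d, Sema3e and Plxnb1 in each mouse, with short lines for the group means (n = 3) and the cutoff of 4.25 as a dashed line. All 4 probe sets of Sema3e have the lower mean in noise-exposed mice, and the dimmer probe set of Plxnb1 lies at the cutoff with the groups mixed.

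The class 4 semaphorins span the membrane and signal mostly through B-type plexins, and 4 of the 6 had a log2 fold change above 0, beside 63.3% of all genes. Sema4c, the ligand of Plxnb2, had signals of 9.44, 9.09 and 9.21 in the noise-exposed mice and 8.56, 8.63 and 9.21 in the unexposed mice. Unexposed replicate 3 lay among the noise-exposed mice and the other 2 unexposed mice lay below them. The log2 fold change was 0.45 (SE 0.21, 95% interval -0.04 to 0.93, limma adjusted p = 0.707). Sema4g had signals of 7.50, 6.74 and 6.98 in the noise-exposed mice and 6.50, 6.33 and 7.10 in the unexposed mice and Sema4a, which also acts on immune cells, 5.12, 5.01 and 5.14 in the noise-exposed mice and 4.48, 4.47 and 5.35 in the unexposed mice. Unexposed replicate 3 again lay among or above the noise-exposed mice in both. Their log2 fold changes were 0.43 (SE 0.27) and 0.32 (SE 0.25). Against unexposed replicate 3 alone, Sema4c, Sema4g and Sema4a differed by 0.04, -0.03 and -0.26. Sema4d, the ligand of Plxnb1, had a log2 fold change of -0.05 (SE 0.20) on its brightest probe set and 0.22 on another near the cutoff, Sema4b one of -0.10 (SE 0.18) and Sema4f one of 0.19 (SE 0.29).

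Among the other membrane semaphorins, the groups did not overlap for Sema7a. Sema7a, which is anchored by a lipid and binds Plxnc1 and beta1 integrins, had signals of 9.79, 9.92 and 9.73 in the noise-exposed mice and 9.67, 9.63 and 9.66 in the unexposed mice. The 3 unexposed mice lay close together under the noise-exposed ones, and the log2 fold change was 0.16 (SE 0.13, 95% interval -0.15 to 0.47, adjusted p = 0.782), and 0.17 (SE 0.20) on its other probe set, where the groups overlapped. Sema5a, which carries thrombospondin repeats, had a log2 fold change of 0.07 (SE 0.19). The class 6 semaphorins Sema6a, Sema6b and Sema6d, ligands of A-type plexins, had 0.22 (SE 0.21), -0.04 (SE 0.15) and 0.09 (SE 0.16). For Sema6a unexposed replicate 3 stood apart at 7.58, while the other 5 mice lay between 8.05 and 8.35.

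Among the receptors, the 2 measured B-type plexins had the highest log2 fold changes on the brightest probe sets, and neither passed the test. Plxnb1, which binds Sema4d and activates RhoA through exchange factors, had signals of 6.78, 6.23 and 6.21 in the noise-exposed mice and 5.67, 5.99 and 5.92 in the unexposed mice. All noise-exposed mice lay above all unexposed mice, and noise-exposed replicate 1 was the highest. The means were 6.41 ± 0.32 against 5.86 ± 0.17 (SD, n = 3). The log2 fold change was 0.55 (SE 0.20, 95% interval 0.09 to 1.01, limma adjusted p = 0.692). Without noise-exposed replicate 1 it was 0.36, against unexposed replicate 1 alone 0.74 and against unexposed replicate 2 alone 0.42. The other tested probe set of Plxnb1, which averaged 4.21 over the 6 mice, had signals of 4.54, 3.81 and 4.17 in the noise-exposed mice and 4.36, 4.04 and 4.35 in the unexposed mice and a log2 fold change of -0.08 (SE 0.21). It lay above the cutoff on 3 of 6 arrays.

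Plxnb2 had signals of 5.65, 5.14 and 5.61 in the noise-exposed mice and 4.66, 5.52 and 4.90 in the unexposed mice. Unexposed replicate 2, the female, lay among the noise-exposed mice, and the 2 unexposed males lay below them. The log2 fold change was 0.44 (SE 0.25, adjusted p = 0.727), but -0.05 against the unexposed female alone. Plxnc1, the receptor of Sema7a, was the most variable of the 30 genes, with signals of 5.93, 7.57 and 6.38 in the noise-exposed mice and 6.98, 7.76 and 6.15 in the unexposed mice. Mice of both groups lay at both ends, and the SD was 0.85 in noise-exposed and 0.81 in unexposed mice (n = 3 each). Its log2 fold change was -0.34 (SE 0.50), and 0.42 (SE 0.21) on its other tested probe set.

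The A-type plexins, which pass on the signals of class 3 and class 6 semaphorins, had log2 fold changes between -0.16 and 0.07. Plxna1 had a log2 fold change of 0.07 (95% interval -0.30 to 0.44), Plxna2 -0.16 (-0.60 to 0.29) and Plxna4 -0.03 (-0.51 to 0.45). A second probe set of Plxna2 gave 0.35 (SE 0.23), the opposite sign. Plxnd1, the receptor of Sema3e on vessels and neurons, had 0.08 (95% interval -0.29 to 0.45). The neuropilins had smaller SEs than any measured plexin. Nrp1, which also binds vascular endothelial growth factor, had signals of 10.17, 10.03 and 9.92 in the noise-exposed mice and 10.18, 10.02 and 10.03 in the unexposed mice. Its log2 fold change was -0.04 (SE 0.14, 95% interval -0.37 to 0.29), and the other 3 tested probe sets lay between -0.14 and 0.18. Nrp2 had signals of 9.00, 8.94 and 9.00 in the noise-exposed mice and 8.73, 8.89 and 8.99 in the unexposed mice. Its log2 fold change was 0.11 (SE 0.14, 95% interval -0.21 to 0.43), and the other 3 tested probe sets lay between -0.04 and 0.28. The groups overlapped in both genes.

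The CRMPs had log2 fold changes between -0.12 and 0.06. Dpysl2 had signals of 12.84, 12.91 and 12.89 in the noise-exposed mice and 12.98, 13.03 and 13.00 in the unexposed mice, so its groups did not overlap although they differed by only -0.12 (SE 0.13, 95% interval -0.42 to 0.17, limma adjusted p = 0.817). Its other probe set was not tested, since only 2 unexposed mice lay above the cutoff there, at 4.85 and 4.42. The third unexposed mouse had 4.10 there, and the noise-exposed mice had 3.78, 3.61 and 3.74, all under the cutoff. The groups did not overlap on it either, with a log2 difference of -0.74. Dpysl3 (CRMP4), a marker of growing axons, had -0.07 (95% interval -0.40 to 0.26) and Crmp1, the namesake of the family, 0.06 (-0.32 to 0.44). Dpysl5 (CRMP5) varied more, with signals of 5.87, 5.23 and 4.66 in the noise-exposed mice and 4.75, 5.38 and 5.58 in the unexposed mice. The groups overlapped, and the log2 fold change was 0.02 (SE 0.34).

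Several genes had more than 1 tested probe set, and these did not always have the same sign. Of 13 such genes, 4 had all tested probe sets on 1 side of 0, namely Sema3b, Sema6a and Sema7a above and Sema3e below. Over the array 50.1% of the 5262 genes with several tested probe sets had them all on 1 side. In the other 9 genes, Sema4d, Sema5a, Sema6d, Plxna2, Plxnb1, Plxnc1, Nrp1, Nrp2 and Dpysl3, the probe sets lay on both sides of 0. Probe sets of a gene can read different transcript ends or isoforms, and which ones they read was not tested.

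The choice of unexposed mouse moved several values more than their SE. Unexposed replicate 1 was male and dissected with the noise-exposed mice. Replicate 2 was the only unexposed female, and replicate 3 was a male of the second day. Sex, day and litter thus cannot be told apart from the single mouse. All noise-exposed mice were of 1 litter that no unexposed mouse shared, so in every comparison noise and litter cannot be told apart. For 11 of the 30 genes the brightest probe set stayed on 1 side of 0 in all 18 alternative settings, among them Sema3a, Sema3d, Sema3e, Sema4a, Sema4c, Sema4g, Sema7a, Plxnb1 and Dpysl2. Over these settings the limma adjusted p ranged from 0.292 to 0.992 for Sema3d and from 0.335 to 0.992 for Plxnb1. Of the 30 genes 8 were lowest of all 6 mice in unexposed replicate 1 and 9 were highest in noise-exposed replicate 1. These were the largest such counts of any mouse, the smallest being 3 for both, and the shares over all genes were not counted.

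**Figure D5:**
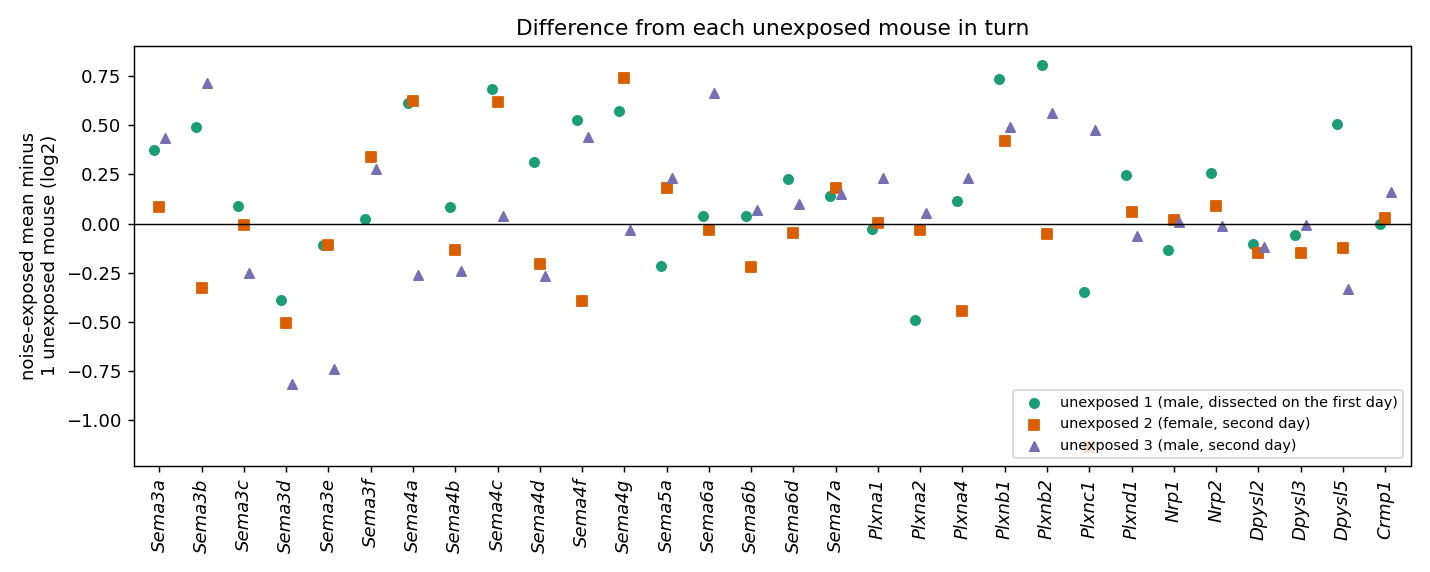
Mean of the 3 noise-exposed mice minus each unexposed mouse in turn (log2) for the 30 measured genes, with a green circle for replicate 1, an orange square for replicate 2 and a purple triangle for replicate 3. The 3 marks lie together for Dpysl2 and Sema7a, all below 0 for Sema3d, and on both sides of 0 for Sema3b, Plxnb2 and Plxnc1.

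Partners of semaphorin signalling outside these families were taken from a list of 54 co-receptors, small GTPases, kinases and cytoskeletal effectors. On the array were 50 of them and 45 were tested, of which 0 passed in either direction (limma, lowest adjusted p = 0.667, 3 at an unadjusted p under 0.05), with 28 above 0 and a median log2 fold change of 0.03. These 3 and 28 of 45 stand beside 6.19% and 63.3% of all genes and are near that background. The groups did not overlap for Tubb3, L1cam and Numb (higher) and for Rnd3 and Arhgef12 (lower), 3 and 2 of 45 beside 10.4% and 3.41% of all genes. The 3 highest by unadjusted p were Tubb3, the neuronal beta-tubulin, at 0.48 (SE 0.15), and the cell adhesion molecules Cntn2 at 0.43 (SE 0.19) and L1cam, a partner of Nrp1 in the response to Sema3a, at 0.35 (SE 0.16). The 3 lowest were Rnd3 at -0.56 (SE 0.23), a GTPase that opposes RhoA, Itga1, a collagen-binding integrin, at -0.50 (SE 0.22), and Arhgef11, an exchange factor for RhoA that binds B-type plexins, at -0.74 (SE 0.38). Signals of L1cam were 8.77, 8.76 and 8.56 in the noise-exposed mice and 8.50, 8.14 and 8.41 in the unexposed mice, and those of Rnd3 7.70, 8.21 and 8.24 in the noise-exposed mice and 8.38, 9.02 and 8.44 in the unexposed mice. Signals of Arhgef11 were 5.31, 6.32 and 6.12 in the noise-exposed mice and 6.88, 7.19 and 5.91 in the unexposed mice, with unexposed replicate 3 among the noise-exposed mice.

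The tissue is a mixture, so marker genes of its cell types were read beside these values. Above the cutoff on all 6 arrays were 14 of 16 neuronal, 9 of 9 Schwann and satellite glial, 9 of 11 central glial and 9 of 9 bone-forming cell markers on the array, but 0 of 6 hair cell markers, of which Myo7a, Otof, Pou4f3, Atoh1 and Slc26a5 lay below it on every array. The summed linear signal of the neuronal list was 27418 to 30506 in noise-exposed and 27238 to 30913 in unexposed mice, and that of the Schwann and satellite glial list 17488 to 18682 against 18006 to 19241. It was 8904 to 9485 against 7004 to 9131 for central glia, and 907 to 920 against 760 to 860 for macrophages and microglia, whose 12 genes on the array include Adgre1 below the cutoff on every array. The sum of the macrophage list was thus higher in every noise-exposed mouse. Of its 10 tested genes 9 had a log2 fold change above 0, beside 63.3% of all genes. Only 1 of the 10, Tyrobp, had groups without overlap, beside 10.4% of all genes. The sums of the central glial list overlapped, but 8 of its 9 tested genes had a log2 fold change above 0. The exception was Cnp at -0.01. Groups did not overlap, with noise-exposed mice higher, for 2 of these 9 genes. They were Mobp at 0.78 (SE 0.19, limma adjusted p = 0.667) and Mog at 0.51 (SE 0.19, adjusted p = 0.697). The lymphocyte list was mostly at background, since 5 of its 7 genes lay below the cutoff on every array and Cd79a lay above it on 2. The sum over all 7 was 78 to 87 against 95 to 120. Cd3e, the only 1 above the cutoff on all 6 arrays, had a log2 difference of -0.66 (SE 0.18, limma adjusted p = 0.667), and Cd79b one of 0.12. The part of these cell types in the values of Plxnb1, Sema3a and Sema3d was not tested. The 3' minus 5' difference of the beta-actin control probe sets, a measure of RNA quality and amplification, was 2.04 to 2.28 (log2) in noise-exposed and 1.93 to 2.08 in unexposed mice, and its part in these values was not tested. On an array, 24671 to 25371 probe sets exceeded the cutoff.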

How the data were processed

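Messenger RNA of 6 mice, 3 noise-exposed and 3 unexposed, was measured with 1 array each, and groups and replicate numbers come from the labels. Per the labels' protocols, the total RNA of a mouse, 8 to 21 ng, was amplified before labelling, which can widen the spread between arrays. The authors deposited log2 signals per probe set, made with RMA in R 2.6.1 and Bioconductor 2.1 per their deposited code file. RMA equalises the distributions of the arrays, so a shift of most transcripts would not be visible. The authors also deposited a list from significance analysis of microarrays (SAM 3.02) with a fold ratio and a q-value, and a table with means and corrected p-values. The members and gene lists were chosen with earlier results of these data known.

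Probe sets above the cutoff of 4.25 on at least 3 of 6 arrays were tested, 25200 in all, leaving out 64 control probe sets. Groups were compared by two-sided moderated tests (lmFit and eBayes of limma 3.58.1, R 4.3.3), with adjusted p under 0.05 (Benjamini-Hochberg) as the threshold. The fit was tested on simulated data. The SAM list was quoted and not rerun. All 34 genes were named, with the 3 partners of lowest unadjusted p per direction. The number of arrays limits the precision.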

Additional observations from a re-analysis of the deposited data

How the results depend on the processing

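In 18 alternative settings (signal filter, normalization, variance model, day, sex, RNA input, replicate block, each array left out) and with other probe sets of a gene, 0 of these genes and 0 of the pathway partners passed. Over all probe sets 0 passed with the replicate block. The first day of dissection alone leaves 1 unexposed mouse, a male, against 3 females, so its calls are not given. Leaving out 1 array gave 0 to 15 calls over all probe sets (15 without unexposed replicate 2), 0 among members and 0 among partners. The 15 calls came from 3 noise-exposed females against unexposed males, so noise and sex cannot be told apart there. With 1 array left out, the median log2 fold change of the members lay between 0.012 and 0.18. That median was -0.032 with sex as a term and with females only, which both rest on unexposed replicate 2 alone. With sex as a term and with females only, the log2 fold change was -0.33 for Sema3b, -0.032 for Sema6a and -0.054 for Plxnb2. These were opposite to the reported signs. In the fit of all 6 arrays the other tested probe set of Plxnb1 gave -0.077, also opposite to the reported sign. The cause was not tested. Of 561 repeated values of single genes 492 kept their direction, and a further 62 changed sign in genes whose reported value lay within 1 SE of 0. The number of genes above the cutoff stayed between 24 and 30. Signals within 1 log2 unit of the cutoff, such as Sema3f, Sema4a and Plxnd1, are the least certain. Deviations of equally numbered mice from their group means correlated at 0.0937, 0.025 and -0.0379 over the tested probe sets, and these mice share no litter, so the numbers pair no samples and the replicate block (lowest adjusted p by limma 0.686 over all probe sets) adds nothing to the design.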
